A study of Sus scrofa with 24 samples.

Results

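The miR-30 family was followed in small RNA libraries of cultured pig fat cells. Its members were taken as the entries named ssc-miR-30 with a letter from a to e, with or without an arm (5p or 3p), which gave 9 of the 1587 entries of the deposited table: ssc-miR-30a, miR-30b, miR-30c and miR-30e with both arms each, and ssc-miR-30d, which is listed without an arm. The cells were preadipocytes of 6-day-old Yorkshire piglets, from the subcutaneous fat of the back (BF) or from within the longissimus dorsi, a back muscle (intramuscular, IMF). Both kinds of culture were grown to near confluence (day 0), then received isobutylmethylxanthine, dexamethasone and insulin until day 2, insulin alone until day 4, and growth medium without inducers until day 8. The 8 groups, BF-0d, BF-2d, BF-4d, BF-8d, IMF-0d, IMF-2d, IMF-4d and IMF-8d, held 3 libraries each. No untreated culture of day 2, 4 or 8 was among the samples, so the effect of the inducers and the effect of time in culture cannot be told apart. The labels do not say which library came from which piglet, and p-values therefore measure only the spread between these libraries. The libraries are bulk samples: fewer cells of a type and less of a miRNA per cell cannot be told apart.

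A miRNA gene is transcribed into a long RNA from which a hairpin is cut, and the hairpin is cut again into a short duplex of a 5p and a 3p strand. One strand, the guide, is loaded into an Argonaute protein and pairs with messenger RNAs mainly through its seed, bases 2 to 8, while the other strand is mostly degraded. In the miR-30 family the guide of each hairpin is usually the 5p strand, and the 5p strands share one seed. Members of this family have been described as favouring fat cell formation in human adipose-derived stem cells, with RUNX2, a transcription factor of the bone lineage, among their described targets.

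The mature sequences are shown because the family is defined by them. They are those the study lists for its entries, each was identical to a mature miRNA in the RefSeq annotation of Sscrofa11.1, and the seed is in capitals. The 5 sequences with the shared seed, called guide strands here after the family's usual guide, were these, 5′ to 3′.
ssc-miR-30a-5p: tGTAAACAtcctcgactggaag
ssc-miR-30b-5p: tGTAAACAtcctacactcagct
ssc-miR-30c-5p: tGTAAACAtcctacactctcagc
ssc-miR-30d: tGTAAACAtccccgactggaagct
ssc-miR-30e-5p: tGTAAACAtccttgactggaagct
All 5 carried the seed GTAAACA, and none of the other entries did among the 958 entries for which a sequence was used here. Outside the seed the family fell into 2 groups. ssc-miR-30d and miR-30e-5p each differed from ssc-miR-30a-5p at 1 position, counted from 1 at the 5′ end: T12C from ssc-miR-30a-5p to ssc-miR-30d, and C13T from ssc-miR-30a-5p to ssc-miR-30e-5p. ssc-miR-30d and miR-30e-5p differed from one another at both of these positions. ssc-miR-30b-5p and miR-30c-5p shared their first 18 bases and differed only after these. The authors allowed no mismatch in mapping, so a read that covers the differing positions belongs to 1 of these entries.

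The 3p strands held 3 different seeds, shown here with ssc-miR-30c-1-3p, an entry outside the family as chosen here that has the seed of a member.
ssc-miR-30a-3p: cTTTCAGTcggatgtttgcagc
ssc-miR-30e-3p: cTTTCAGTcggatgtttacagc
ssc-miR-30c-3p: cTGGGAGAaggctgtttactct
ssc-miR-30c-1-3p: cTGGGAGAgggttgtttact
ssc-miR-30b-3p: cTGGGAGGtggatgtttactt
ssc-miR-30a-3p and miR-30e-3p differed by G18A alone. The seeds of ssc-miR-30c-3p and ssc-miR-30b-3p differ in their last base, and no other sequenced entry carried the seed of ssc-miR-30b-3p.

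The hairpins lie in 3 pairs in Sscrofa11.1, as RefSeq places them. MIR30C-2 (chr1:51383782-51383861) and MIR30A (chr1:51412827-51412933) are on the minus strand of chromosome 1, both in an intron of LOC102157778 on the same strand, with 28965 bases between them. MIR30D (chr4:6948669-6948747) and MIR30B (chr4:6952794-6952869) are on the plus strand of chromosome 4 with 4046 bases between them and lie between genes, MIR30B 16823 bases from ZFAT, the nearest gene. MIR30C-1 (chr6:170426781-170426860) and MIR30E (chr6:170429841-170429920) are on the minus strand of chromosome 6 with 2980 bases between them, both in an intron of NFYC, which encodes a subunit of the transcription factor NF-Y. The sequence of ssc-miR-30c-5p occurs in both MIR30C-1 and MIR30C-2, so its reads cannot be divided between chromosomes 1 and 6, whereas the 3p strands of these hairpins, ssc-miR-30c-1-3p and ssc-miR-30c-3p, can be told apart.

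The deposited values are reads on an entry per 1000000 reads on all miRNAs of the library (RPM, which the authors call TPM). Libraries held between 4954845 and 16863560 such reads, and 3 reads, used as the floor of detection, were worth 0.178 to 0.606 RPM (counting error only). ssc-miR-21-5p alone took 27.9% to 60.5% of a library. Since its share was lowest on day 8, the other entries took more of the common total there, and values with ssc-miR-21-5p left out of the total are given where this scaling changes a call of a member. All 9 members had reads in all 24 libraries and a mean of at least 1 RPM, the limit for testing, which 430 entries passed. A member was called when limma gave a Benjamini-Hochberg adjusted p under 0.05 over these 430 entries and the fold change, on the scale log2(RPM + 1), was above 1.5.

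ssc-miR-30d was the most abundant member, and the 15th most abundant entry of all. Mature lengths run from 20 to 24 bases in the sequences above, so RPM were compared between members directly. By the mean over the 24 libraries the order was ssc-miR-30d (4915 RPM), miR-30a-5p (980 RPM), miR-30e-3p (433 RPM), miR-30e-5p (330 RPM), miR-30c-5p (174 RPM), miR-30b-5p (158 RPM), miR-30a-3p (66.2 RPM), miR-30c-3p (5.41 RPM) and miR-30b-3p (2.33 RPM). ssc-miR-30d lay above ssc-miR-30a-5p in all 24 libraries, and ssc-miR-30a-3p above ssc-miR-30c-3p likewise. Other neighbours in this order were not separated everywhere: the libraries of a group overlapped in 4 of 8 groups for ssc-miR-30e-3p and miR-30e-5p, in 3 of 8 for ssc-miR-30c-5p and miR-30b-5p, of which the latter was the higher without overlap in BF-8d, and in 4 of 8 for ssc-miR-30b-5p and miR-30a-3p. For ssc-miR-30b-5p the place in the order depended on the group, since it lay below ssc-miR-30a-3p without overlap in 1 group and above it in 3 groups. The rarest member, ssc-miR-30b-3p, rested on 6 to 45 reads a library.

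Together the members made up a larger share of the miRNA reads on day 8 than on day 0 in both sources. In BF the 9 members held 0.591 ± 0.0382% of the reads on day 0 and 1.21 ± 0.202% on day 8 (SD, n = 3), and in IMF 0.377 ± 0.0202% and 0.663 ± 0.0962%. The sum of the 5 guide strands in BF went from 5347 ± 198 RPM on day 0 to 6862 ± 983 RPM on day 2 and 11898 ± 2926 RPM on day 4, with 11439 ± 2096 RPM on day 8. With ssc-miR-21-5p left out of the total these 5 entries held more of the BF reads on day 4 (2.46 ± 0.502%) than on day 8 (1.80 ± 0.481%), with overlapping libraries. The IMF sum stayed between 3182 and 4153 RPM in the 9 libraries of days 0, 2 and 4, and lay between 5450 and 7225 RPM on day 8. ssc-miR-30d supplied most of the shared seed, from 63.7% to 83.4% of the sum of the 5 entries in a library.

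**Figure D1:**
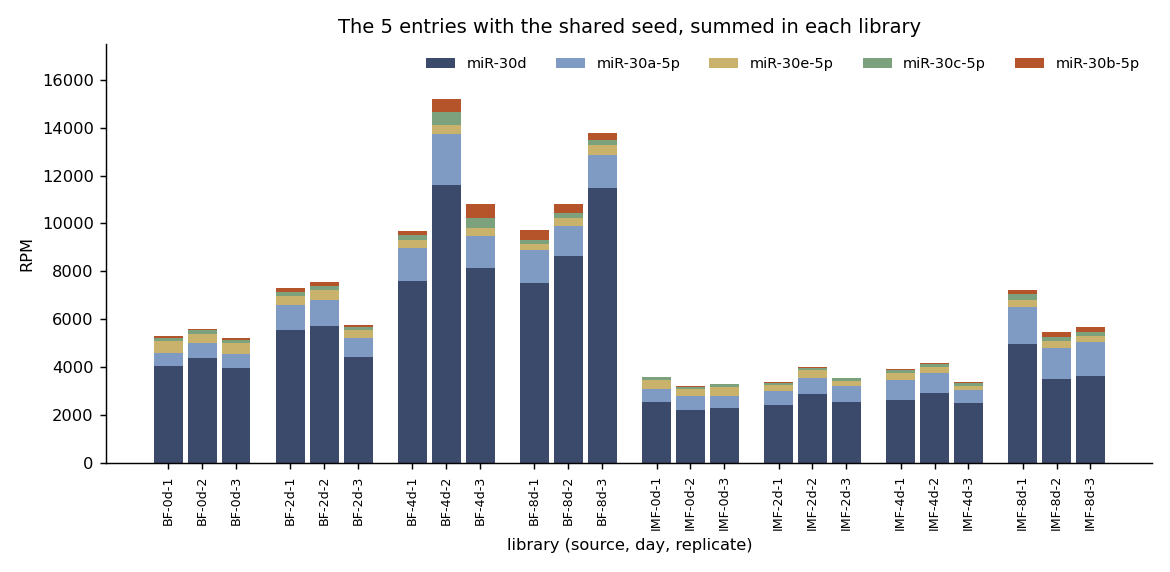
Stacked RPM of the 5 miR-30 entries with the shared seed (y axis, from 0) in each of the 24 libraries (x axis, ordered by source, day and replicate). ssc-miR-30d is the largest block in every bar, the BF bars of days 4 and 8 reach 9685 to 15216 RPM, and the IMF bars stay at 4153 RPM or less until day 8.

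The first comparison was between day 8 and day 0 within each source. In BF, limma called 5 of 9 members as a rise and none as a fall: ssc-miR-30a-5p, miR-30b-5p, miR-30d, miR-30a-3p and miR-30c-3p. Of all tested entries, 27.9% rose and 14.9% fell in this comparison. In IMF, limma called 6 of 9 members as a rise and none as a fall, the same 5 and ssc-miR-30c-5p. There 19.8% of all tested entries rose and 10.7% fell. Without regard to calls, the libraries of day 8 lay above those of day 0 without overlap for 6 members in BF and 6 in IMF (32.8% and 30.9% of all tested entries), and below them for 1 in BF, ssc-miR-30e-5p (20.9%). The median log2 difference of the members was 0.92 in BF and 0.96 in IMF, while that of all tested entries was 0.15 and 0.07.

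ssc-miR-30b-5p, a guide strand with the shared seed, had the largest difference of the members in both sources. Its values in replicates 1, 2 and 3 were 48.5, 42.7 and 48.9 RPM in BF-0d and 420, 380 and 298 RPM in BF-8d, and the mean was 7.84 times higher on day 8, with a log2 difference of 2.93 (SE 0.20, adjusted p = 4.27e-09). In IMF the values were 28.6, 31.9 and 21.3 RPM on day 0 and 195, 199 and 178 RPM on day 8, and the mean was 6.99 times higher, with a log2 difference of 2.78 (SE 0.17, adjusted p = 7.13e-05). The groups were far apart in both sources, each day 8 library being several times above each day 0 library. This rise was also called with ssc-miR-21-5p left out of the total, at 2.36 in BF and 2.37 in IMF.

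ssc-miR-30d, whose hairpin is the neighbour of that of ssc-miR-30b on chromosome 4, rose by less. It had 4048, 4353 and 3970 RPM in BF-0d and 7518, 8617 and 11493 RPM in BF-8d, a log2 difference of 1.14 (SE 0.20, adjusted p = 2.02e-04). The IMF values were 2550, 2219 and 2289 RPM on day 0 and 4952, 3489 and 3600 RPM on day 8, a log2 difference of 0.75 (SE 0.16, adjusted p = 0.0144). In both sources the groups did not overlap. The rise of ssc-miR-30d was not called in either source with ssc-miR-21-5p left out of the total, where it was 0.55 (adjusted p = 0.0616) in BF and 0.32 (adjusted p = 0.268) in IMF by limma. In IMF the call was also lost without replicate 3 of IMF-0d (adjusted p = 0.0502). The ratio of ssc-miR-30d to ssc-miR-30b-5p, which does not depend on the total, went from 88.9 ± 11.3 to 26.4 ± 10.8 (SD, n = 3) in BF and from 88.7 ± 19.0 to 21.0 ± 3.99 in IMF, with no overlap between days in either source.

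ssc-miR-30a-5p, the second most abundant guide strand, more than doubled in both sources. Its values were 552, 626 and 587 RPM in BF-0d and 1379, 1269 and 1369 RPM in BF-8d, a log2 difference of 1.19 (SE 0.18, adjusted p = 4.33e-05). In IMF-0d it had 544, 580 and 513 RPM and in IMF-8d 1534, 1305 and 1443 RPM, a log2 difference of 1.38 (SE 0.11, adjusted p = 4.07e-04). The day 0 libraries of both sources lay within 513 to 626 RPM and the day 8 libraries within 1269 to 1534 RPM, so that BF and IMF overlapped on both days. With ssc-miR-21-5p left out of the total the rise of ssc-miR-30a-5p was 0.60 in BF and 0.95 in IMF and was called in both.

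ssc-miR-30a-3p, the other strand of the same hairpin, rose alongside, from 45.7, 54.8 and 34.3 RPM to 124, 87.1 and 72.5 RPM in BF, a log2 difference of 1.04 (SE 0.24, adjusted p = 0.00192). In IMF it went from 37.0, 45.2 and 31.3 RPM to 98.4, 95.2 and 97.0 RPM, a log2 difference of 1.35 (SE 0.15, adjusted p = 0.00181). The 3 IMF-8d libraries lay within 95.2 to 98.4 RPM, and the BF-8d libraries around them. Without ssc-miR-21-5p in the total the BF rise of ssc-miR-30a-3p was 0.47 and not called (adjusted p = 0.132, limma), while the IMF rise was 0.93 and called.

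ssc-miR-30c-5p, the guide strand made from hairpins on chromosomes 1 and 6, rose in IMF, from 110, 80.3 and 95.2 RPM to 214, 177 and 164 RPM, a log2 difference of 0.96 (SE 0.16, adjusted p = 0.00606). In BF it had 142.753, 137.965 and 147.952 RPM on day 0 and 190, 179 and 219 RPM on day 8, a log2 difference of 0.45 (SE 0.18, adjusted p = 0.0588) that was not called although the groups did not overlap. Whether its change differed between the sources was tested, and the difference of the day 0 to day 8 changes, IMF minus BF, was 0.51 (SE 0.34, adjusted p = 0.301) in a limma fit of the 24 libraries. Without ssc-miR-21-5p in the total the IMF call of ssc-miR-30c-5p was lost (0.52, adjusted p = 0.111) and the sign turned in BF (-0.14).

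ssc-miR-30c-3p, the 3p strand of the chromosome 1 hairpin, was rare but rose in both sources. In BF it had 1.99, 3.31 and 2.85 RPM on day 0, from 22, 50 and 48 reads, and 8.49, 5.80 and 4.24 RPM on day 8, from 109, 36 and 21 reads, a log2 difference of 0.92 (SE 0.27, adjusted p = 0.0102). In IMF it had 3.94, 3.94 and 1.45 RPM on day 0 and 8.77, 7.35 and 9.99 RPM on day 8, a log2 difference of 1.30 (SE 0.30, adjusted p = 0.0173). The call depended on single libraries, being lost in BF without replicate 1 of BF-0d (adjusted p = 0.0535) and in IMF without replicate 1 of IMF-8d (adjusted p = 0.0599), and it was lost in both sources without ssc-miR-21-5p in the total (adjusted p = 0.174 and 0.0602).

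The strands of ssc-miR-30e and ssc-miR-30b-3p were not called by limma in either source in the main setting. ssc-miR-30e-5p, which differs from ssc-miR-30a-5p at 1 position, had 485.6, 411 and 439 RPM in BF-0d and 228, 357 and 401 RPM in BF-8d. Its log2 difference was -0.47 in BF (95% interval -0.93 to -0.01, adjusted p = 0.0876) and -0.20 in IMF (95% interval -0.60 to 0.19, adjusted p = 0.369). The BF value was called as a fall under other scalings, at -0.62 with median-of-ratios scaling (adjusted p = 0.0155) and at -1.06 without ssc-miR-21-5p in the total (adjusted p = 0.00505). DESeq2 also called it as a fall, at -0.62 (adjusted p = 0.0125). As a share of the 5 guide strands, which does not depend on the total, ssc-miR-30e-5p went from 8.34 ± 0.920% to 2.85 ± 0.486% in BF (SD, n = 3), and in IMF from 8.52% to 11.4% in the libraries of day 0 to 4.56% to 5.13% in those of day 8, with no overlap between the days in either source.

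ssc-miR-30e-3p had a log2 difference of 0.20 in BF (95% interval -0.28 to 0.69) and 0.20 in IMF (95% interval -0.25 to 0.66), and ssc-miR-30b-3p had -0.12 in BF (95% interval -0.69 to 0.45) and 0.17 in IMF (95% interval -0.20 to 0.54). The signs of the IMF value of ssc-miR-30b-3p and of both values of ssc-miR-30e-3p turned without ssc-miR-21-5p in the total. That scaling moved the median of all tested entries by -0.51 in BF and -0.33 in IMF on the log2 scale. Over all tested entries it turned 120 called higher and 64 lower in BF into 56 and 139, and 85 and 46 in IMF into 29 and 97. Median-of-ratios scaling moved that median by -0.11 and -0.04, and called 6 members in each source, in BF with the fall of ssc-miR-30e-5p. It called 101 entries higher and 80 lower in BF, and 75 and 53 in IMF. ssc-miR-148a-3p, at 103996 to 378352 RPM, stays in a total without ssc-miR-21-5p. It was called higher on day 8 than on day 4 in BF and than on day 0 in IMF. The day 0 to day 8 differences of the members are therefore read relative to a common total in which ssc-miR-21-5p lost share.

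**Figure D2:**
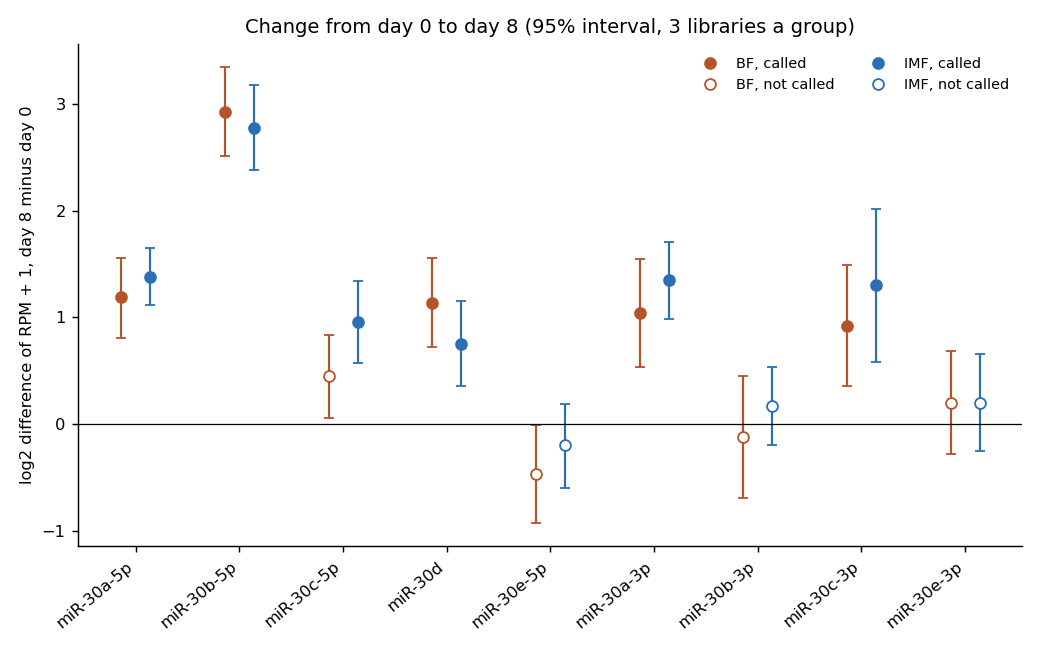
Log2 difference of RPM + 1 between day 8 and day 0 (y axis) for the 9 members (x axis) in BF and IMF, with 95% intervals from limma, 3 libraries a group. Filled points were called and open points were not, and ssc-miR-30b-5p stands highest at 2.93 in BF and 2.78 in IMF.

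The steps between adjacent days divided this rise differently in time. In BF, 1 member was called from day 0 to day 2 (ssc-miR-30c-3p, against 2.79% of all tested entries called higher), 1 from day 2 to day 4 (ssc-miR-30d, against 5.81%) and none from day 4 to day 8, where 3.02% were called in either direction. In IMF, none was called from day 0 to day 2 or from day 2 to day 4, steps in which limma called 0% of the 430 entries, and 5 of 9 rose from day 4 to day 8, against 12.3% of all tested entries. At an unadjusted p under 0.05 limma gave 1 member in the last BF step (ssc-miR-30c-5p, lower on day 8) against 23.0% of all entries, and none in the first IMF steps against 15.8% and 15.1%. edgeR and DESeq2 called no member in these 3 steps either, and at an unadjusted p under 0.05 both gave ssc-miR-30c-5p in the BF step, 1 member in the first IMF step (ssc-miR-30e-5p) and 2 in the second (ssc-miR-30b-5p and miR-30c-5p). Over all entries of the first and second IMF steps edgeR called 7 and 1, DESeq2 9 and 2. Groups also did not overlap for 6 members higher and 1 lower from BF-0d to BF-2d (13.0% and 16.7% of all tested entries), for 3 members higher from BF-2d to BF-4d (24.4%), for 2 from IMF-2d to IMF-4d (5.58%), and for 7 members higher from IMF-4d to IMF-8d (30.5%). The split of calls over all entries moved with the scaling: from day 4 to day 8 in IMF it was 53 higher and 3 lower, 36 and 11 with median-of-ratios scaling, and 28 and 9 without ssc-miR-21-5p in the total. In BF it was 25 and 1 from day 2 to day 4 (23 and 15, 20 and 7) and 10 and 3 from day 4 to day 8 (10 and 5, 4 and 39), with the same scalings in the same order.

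In BF the early values of ssc-miR-30b-5p were spread widely, with 167, 137.8 and 59.5 RPM on day 2 and 178, 565 and 569 RPM on day 4. Its steps were 1.24 (SE 0.38, adjusted p = 0.118) from day 0 to day 2 and 1.78 (SE 0.48, adjusted p = 0.0520) from day 2 to day 4 on the log2 scale, neither of them called by limma in the main setting. The first was called by edgeR (adjusted p = 0.00206), by DESeq2 (1.73e-05) and by limma with median-of-ratios scaling (0.0472), and the second by DESeq2 (9.74e-04) but not by edgeR (0.0558). A limma fit of all 24 libraries called both (adjusted p = 0.0143 and 4.21e-04), as did limma with a filter at 10 RPM (0.0289 and 0.0442). The second was also called by limma with a pseudocount of 0.1 (0.0309) and with the replicate number as a block (0.0136). Replicate 3 of day 2 and replicate 1 of day 4 were the low libraries of their groups, and without replicate 1 of BF-4d the number of members called over the BF steps was 5 in place of 2. Leaving out replicate 2 of BF-2d brought that number to 0, and leaving out replicate 3 of BF-2d to 3.

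ssc-miR-30d had 5558, 5721 and 4413 RPM in BF-2d and 7594, 11608 and 8118 RPM in BF-4d, a log2 difference of 0.78 (SE 0.19, adjusted p = 0.0405). This call was lost in 5 of the 6 fits without 1 library, those without replicates 1, 2 or 3 of BF-2d (adjusted p = 0.0719, 0.101 and 0.139) and without replicates 2 or 3 of BF-4d (0.108 and 0.0811). It was also lost with median-of-ratios scaling (adjusted p = 0.0723) and without ssc-miR-21-5p in the total (0.0599). In this step edgeR called 0 members, and limma with no filter called 0 entries. ssc-miR-30c-3p rose from BF-0d to BF-2d by 1.13 (SE 0.18, adjusted p = 0.0225), its BF-2d libraries holding 6.81, 7.10 and 7.27 RPM. That call too was lost in 5 of 6 fits without 1 library, with adjusted p from 0.0629 to 0.112, and held only without replicate 3 of BF-2d. It was also lost with the replicate number as a block, where limma called 0 of the 430 entries in this step.

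ssc-miR-30c-5p had its highest BF mean on day 4, with 201, 182 and 149 RPM on day 2, 193, 541 and 414 RPM on day 4 and 190, 179 and 219 RPM on day 8. The libraries of day 4 spanned a wide range and limma called neither step in the main setting (adjusted p = 0.0975 and 0.177). A limma fit of all 24 libraries called both, at 0.99 (adjusted p = 0.00335) and -0.84 (0.0133). Both were also called without replicate 1 of BF-4d, the low library (adjusted p = 0.00306 and 0.00402), and the first by DESeq2 (0.0416). ssc-miR-30a-5p showed the same order of means, with 1010, 1089 and 793 RPM on day 2, 1358, 2130 and 1348 RPM on day 4 and the day 8 values given above, and limma called none of its BF steps in the main setting either. Its step from day 2 to day 4 was called in the limma fit of all 24 libraries (adjusted p = 0.00594) and without replicate 1 of BF-4d (0.0388). Its step from day 0 to day 2 was called by edgeR (0.72, adjusted p = 0.0106), by DESeq2 (adjusted p = 8.29e-05) and by limma with median-of-ratios scaling (0.0197) or without ssc-miR-21-5p in the total (0.0488). It was also called in the limma fit of all 24 libraries (0.0123) and with a filter at 10 RPM (0.0273). In that step edgeR and DESeq2 each called 4 members higher, and 9.30% of all tested entries, against 1 member and 2.79% by limma, the others being ssc-miR-30b-5p and miR-30a-3p (adjusted p = 0.0381 by edgeR) beside ssc-miR-30c-3p.

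In IMF the calls were all in the last step. ssc-miR-30b-5p had 31.1, 30.9 and 31.3 RPM in IMF-2d and 36.0, 35.01 and 54.8 RPM in IMF-4d before the 195, 199 and 178 RPM of IMF-8d, a last step of 2.19 (SE 0.19, adjusted p = 3.61e-04) on the log2 scale that was called in all 6 fits without 1 library. ssc-miR-30a-5p went from 813, 827 and 543 RPM on day 4 to the day 8 values given above, a step of 0.99 (SE 0.19, adjusted p = 0.0128) that was lost without replicate 1 of IMF-8d (adjusted p = 0.0631). ssc-miR-30a-3p made a step of 1.10 (SE 0.14, adjusted p = 0.00260), called in all 6 such fits.

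The smaller IMF steps were less stable. That of ssc-miR-30c-5p was 0.68 (SE 0.15, adjusted p = 0.0229), and it was lost without replicate 1 or 2 of IMF-4d (adjusted p = 0.0608 and 0.0642) and without replicate 1 or 2 of IMF-8d (0.0631 and 0.0841). That of ssc-miR-30c-3p was 0.88 (SE 0.22, adjusted p = 0.0394), lost in 5 of 6 fits, with adjusted p from 0.0619 to 0.124, and kept only without replicate 2 of IMF-4d. With median-of-ratios scaling, and likewise without ssc-miR-21-5p in the total, the calls of ssc-miR-30b-5p and miR-30a-3p were kept in this step and those of ssc-miR-30a-5p (adjusted p = 0.0543 and 0.0803), miR-30c-5p and miR-30c-3p were not. ssc-miR-30d, at 2626, 2900 and 2501 RPM in IMF-4d, made a step of 0.57 (SE 0.17, adjusted p = 0.0632), which was not called.

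**Figure D3:**
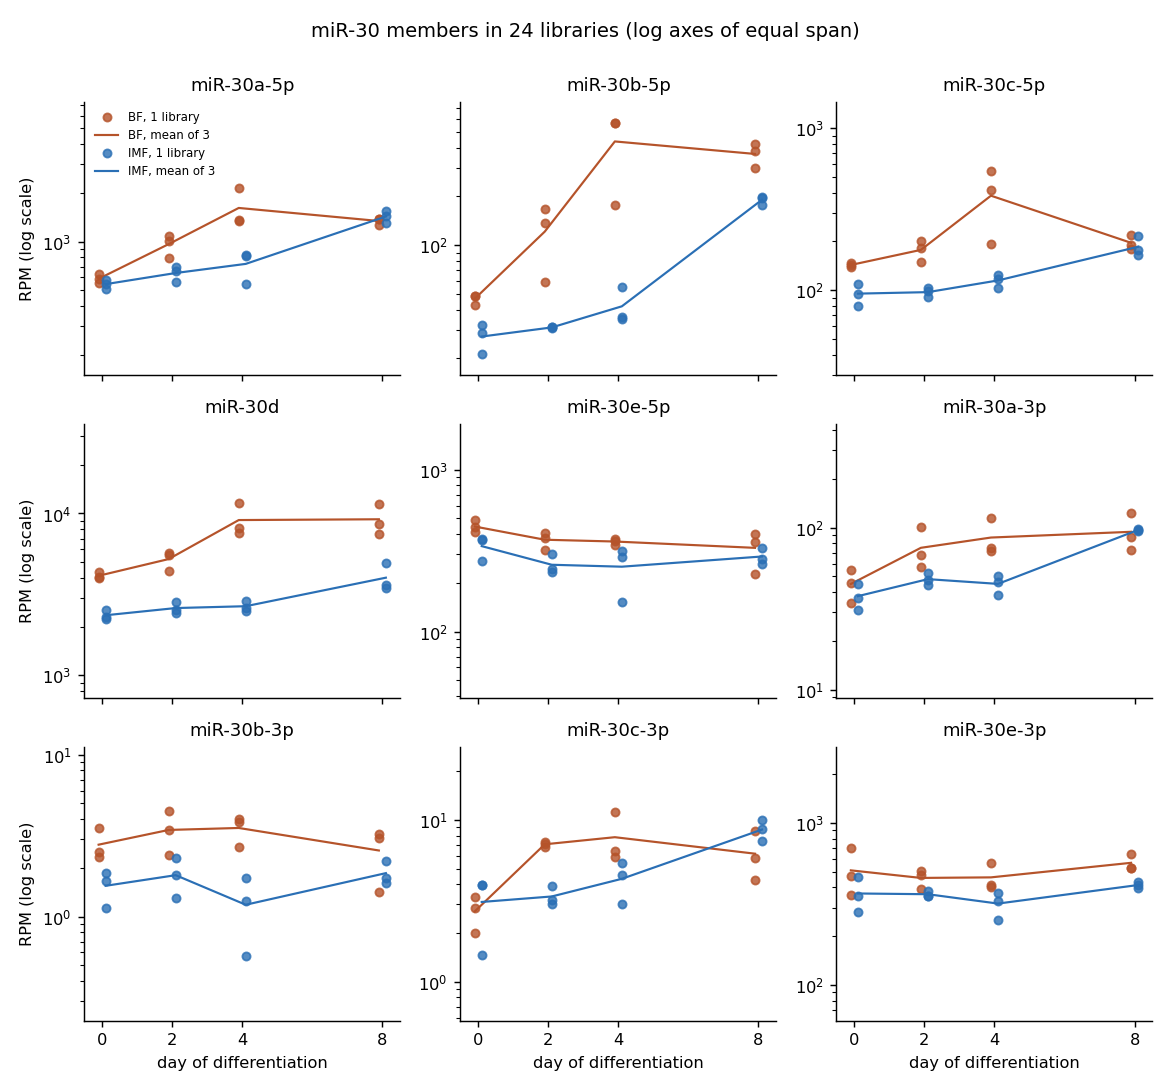
RPM (y axes, logarithmic) of the 9 members by day of differentiation (x axes), with a point for each of 24 libraries and a line through the means of 3, BF and IMF in different colours. The BF line of ssc-miR-30b-5p climbs between day 0 and day 4 and the IMF line between day 4 and day 8, when its libraries reach 178 to 199 RPM.

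The next comparison was between the sources on each day. By limma no member was called higher in IMF than in BF on any day, and 3, 4, 6 and 2 of the 9 were called lower on days 0, 2, 4 and 8. Over all tested entries 15.8%, 6.51%, 28.8% and 25.1% were called lower in IMF on the respective days. ssc-miR-30c-3p was called higher in IMF on day 8 with median-of-ratios scaling (0.70, adjusted p = 0.0493) and without replicate 1 of BF-8d (0.69, adjusted p = 0.0258). The median log2 difference of the members, IMF minus BF, was -0.45, -0.65, -1.08 and -0.14 on days 0, 2, 4 and 8, and that of all tested entries -0.13, -0.14, -0.34 and -0.28. On days 2 and 4 all 9 members lay lower in IMF without overlap between the groups, as did 20.5% and 41.2% of all tested entries.

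ssc-miR-30d was called lower in IMF on every day, with a BF mean of 1.75, 2.01, 3.40 and 2.29 times the IMF mean on days 0, 2, 4 and 8. On day 4 the BF libraries held 7594, 11608 and 8118 RPM and the IMF libraries 2626, 2900 and 2501 RPM, with every BF library far above every IMF library. The log2 differences were -0.81 (SE 0.09, adjusted p = 0.00203) on day 0, -1.74 (SE 0.21, adjusted p = 1.89e-04) on day 4 and -1.19 (SE 0.21, adjusted p = 4.66e-04) on day 8, and the adjusted p on day 2 was 0.0132 by limma. On day 2 the call was lost without replicate 1 of BF-2d, replicate 1 of IMF-2d or replicate 3 of IMF-2d (adjusted p = 0.0588, 0.0546 and 0.0645), and on the other days it was kept in all 6 fits without 1 library.

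ssc-miR-30b-5p was also called lower in IMF on every day, and its difference was widest on day 4. The log2 difference went from -0.77 (SE 0.18, adjusted p = 0.0227) at day 0 to -1.81 (SE 0.37, adjusted p = 0.0304) at day 2 and -3.20 (SE 0.40, adjusted p = 2.32e-04) at day 4, and it was -0.92 (SE 0.17, adjusted p = 5.99e-04) at day 8. The mean was 10.4 times higher in BF than in IMF on day 4 against 1.92 times on day 8. The day 4 value ranged from -3.76 to -2.92 in the fits without 1 library. On day 0 the call was lost without replicate 1 or 3 of BF-0d or replicate 1 of IMF-0d (adjusted p = 0.0761, 0.0804 and 0.0562), and on day 2 it was kept only without replicate 3 of BF-2d, the low library of its group, with adjusted p from 0.0966 to 0.110 in the other 5 fits. With the replicate number as a block limma kept the day 2 call of ssc-miR-30d and lost those of ssc-miR-30b-5p, miR-30c-5p and miR-30c-3p.

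ssc-miR-30c-5p was called lower in IMF on days 0, 2 and 4, with log2 differences of -0.59 (SE 0.13, adjusted p = 0.0211), -0.85 (SE 0.15, adjusted p = 0.0191) and -1.61 (SE 0.33, adjusted p = 0.00238). On day 8, when the libraries of both sources lay within 164 to 219 RPM, it was not called (adjusted p = 0.705). Its day 0 call was lost in 4 of 6 fits without 1 library, those without replicates 1 or 3 of BF-0d (adjusted p = 0.0655 and 0.0769), without replicate 3 of IMF-0d (0.0568) and without replicate 2 of IMF-0d, where the fold fell under 1.5 (log2 difference -0.48). Its day 2 call was kept only without replicate 3 of BF-2d, with adjusted p from 0.0574 to 0.0814 otherwise. The day 4 call was kept in all 6 fits.

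Both strands of ssc-miR-30a were called lower in IMF by limma on day 4 and on no other day. The log2 difference was -1.14 (SE 0.26, adjusted p = 0.00404) for ssc-miR-30a-5p and -0.91 (SE 0.25, adjusted p = 0.0131) for ssc-miR-30a-3p, the latter lost without replicate 2 of BF-4d (adjusted p = 0.0598) or replicate 1 of IMF-4d (0.0692). ssc-miR-30b-3p was also called lower in IMF on day 4, with a log2 difference of -1.08 (SE 0.28, adjusted p = 0.00913) from 23, 38 and 43 reads in BF-4d and 14, 27 and 6 reads in IMF-4d, and ssc-miR-30c-3p on day 2, with -0.89 (SE 0.13, adjusted p = 0.0132). The call of ssc-miR-30c-3p was kept only without replicate 2 or 3 of BF-2d, with adjusted p from 0.0546 to 0.0728 in the other 4 fits. ssc-miR-30e-3p passed the adjusted p on day 8 (0.0330, limma) but its log2 difference of -0.45 was under the fold criterion, and ssc-miR-30e-5p was not called on any day. Without replicate 3 of BF-2d, ssc-miR-30a-5p, miR-30a-3p, miR-30b-3p and miR-30e-5p were also called lower in IMF on day 2 (adjusted p = 0.0131, 0.0449, 0.0404 and 0.0332). ssc-miR-30a-5p was also called lower in IMF on day 2 without ssc-miR-21-5p in the total (-0.67, adjusted p = 0.0407), and ssc-miR-30c-5p was then not called on day 0 (0.0817).

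These differences between the sources are relative to the total, and on day 4 the median of all tested entries had itself a difference of -0.34. Median-of-ratios scaling moved that median by 0.34 on day 4 and 0.21 on day 8, and turned the 32 entries called higher in IMF and 124 lower on day 4 into 51 and 69, those of day 8 from 52 and 108 into 79 and 71, those of day 2 from 25 and 28 into 35 and 25, and those of day 0 from 58 and 68 into 65 and 37. Leaving ssc-miR-21-5p out of the total gave 23 and 36 on day 2, 53 and 69 on day 8, and 35 and 119 on day 4. On day 4 the calls of ssc-miR-30b-5p (-2.77), ssc-miR-30d (-1.31) and ssc-miR-30c-5p (-1.18) remained under median-of-ratios scaling, and those of ssc-miR-30a-5p (-0.71), miR-30a-3p (-0.48) and miR-30b-3p (-0.79) did not. On day 0 the same scaling kept the call of ssc-miR-30d and not those of ssc-miR-30b-5p (-0.59, adjusted p = 0.0674 by limma) and ssc-miR-30c-5p (-0.41, under the fold criterion), and edgeR called none of the 3, with ssc-miR-30d at -0.57 (adjusted p = 0.0173), also under the fold criterion. On day 8 both calls, of ssc-miR-30d and ssc-miR-30b-5p, were kept under every alternative that was run.

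**Figure D4:**
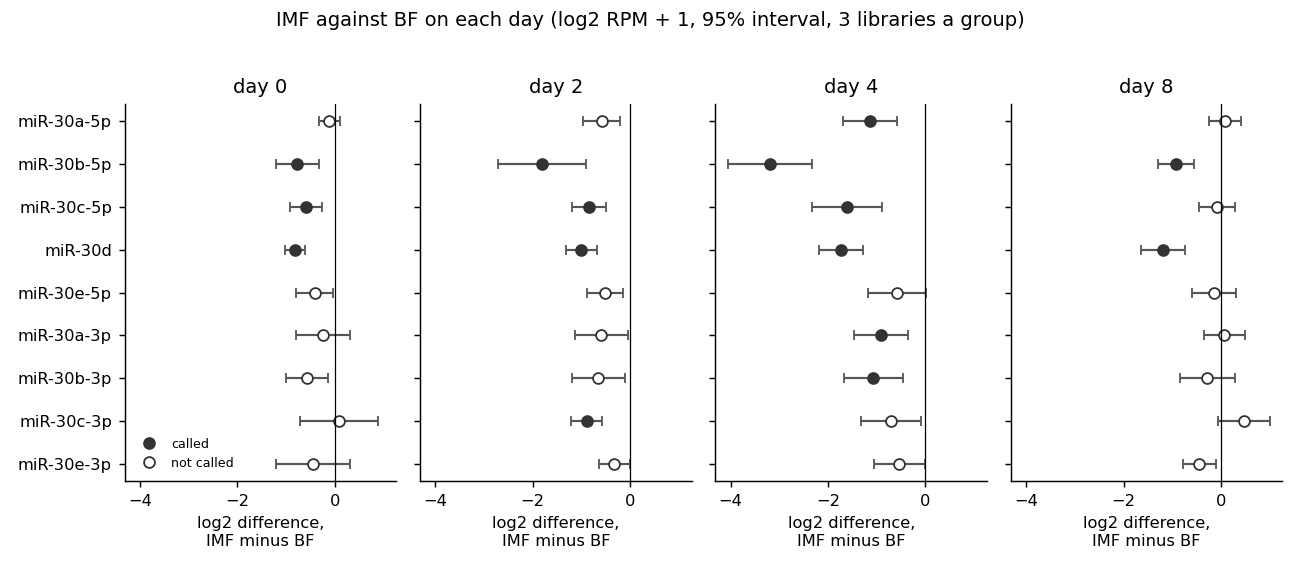
Log2 difference of RPM + 1, IMF minus BF (x axes), for the 9 members (y axis) on days 0, 2, 4 and 8, with 95% intervals from limma and 3 libraries a group. Filled points were called; all lie left of 0, and ssc-miR-30b-5p reaches -3.20 on day 4 and -0.92 on day 8.

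Whether the time courses of BF and IMF differed was tested directly, by a moderated F test in limma on the interaction of source and day. It was past an FDR of 0.05 for 5 of 9 members, against 31.6% of all tested entries: ssc-miR-30b-5p (adjusted p = 8.24e-04), miR-30a-5p (0.00313), miR-30c-5p (0.00834), miR-30c-3p (0.0183) and miR-30d (0.0329). For ssc-miR-30b-5p, miR-30a-5p, miR-30c-5p and miR-30c-3p this held in all 24 fits without 1 library. It did not hold without the 8 libraries numbered 2, where none of the 4 was past the threshold (adjusted p = 0.154, 0.0660, 0.269 and 0.162 in the same order), and without those numbered 3 it was lost for ssc-miR-30c-5p (0.0932) and miR-30c-3p (0.0566). For ssc-miR-30d it was lost in 6 of the 24, without replicate 1 or 3 of BF-0d (adjusted p = 0.0540 and 0.0574), replicate 2 of BF-4d (0.112), replicate 1 of IMF-0d (0.0604) and replicates 1 and 3 of IMF-4d (0.0681 and 0.0693). Without ssc-miR-21-5p in the total it was lost for ssc-miR-30d (adjusted p = 0.107) and ssc-miR-30a-3p was past the threshold (0.0278). ssc-miR-30e-5p (adjusted p = 0.664) and miR-30e-3p (0.945) were not past it.

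Of the steps, members were past the threshold in the last. The change from day 4 to day 8 was larger in IMF than in BF for 5 of 9 members, against 12.3% of all tested entries in either direction. These contrasts were fitted with limma in the main setting only, with no other scaling and no library left out. One of the 5, ssc-miR-30a-3p, was not past the threshold in the F test (adjusted p = 0.0916). The difference of the log2 changes, IMF minus BF, was 2.28 (SE 0.47, adjusted p = 0.00219) for ssc-miR-30b-5p, 1.52 (SE 0.34, adjusted p = 0.00314) for ssc-miR-30c-5p, 1.23 (SE 0.26, adjusted p = 0.00254) for ssc-miR-30a-5p, 1.17 (SE 0.38, adjusted p = 0.0397) for ssc-miR-30c-3p and 0.98 (SE 0.33, adjusted p = 0.0486) for ssc-miR-30a-3p. From day 0 to day 8 as a whole limma put no member past the threshold, against 20.7% of all tested entries, and none had an unadjusted p under 0.05, against 34.0%, with differences from -0.38 for ssc-miR-30d to 0.51 for ssc-miR-30c-5p. For the steps from day 0 to day 2 (2.33% of all tested entries) and from day 2 to day 4 (7.67%) none of the members was past the threshold either. At an unadjusted p under 0.05 there were 2 in the first of these steps and 4 in the second, against 15.1% and 21.9% of all tested entries, and in the second ssc-miR-30b-5p had the lowest adjusted p (0.0654) with a difference of -1.39.

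The strands of a hairpin come from the same precursor, and their ratio within a library does not depend on the total. The ratio of 5p to 3p was fitted with limma over the 59 hairpins named with both arms, after 1 RPM was added to each strand. With a rare strand the fitted ratio therefore depends in part on its level, unlike the ratios printed for single libraries. For ssc-miR-30b it was 13.7, 18.4 and 19.6 in BF-0d and 138.18, 118 and 211 in BF-8d, and 25.4, 17.2 and 12.8 in IMF-0d and 88.2, 114 and 110 in IMF-8d, so that every day 8 library was above every day 0 library. The log2 ratio rose by 3.05 from day 0 to day 8 in BF (SE 0.34, adjusted p = 8.67e-08) and by 2.61 in IMF (SE 0.34, adjusted p = 8.76e-07), in a fit chosen after these values were seen. Of all 59 hairpins 32.2% changed in BF and 5.08% in IMF in either direction, and ssc-miR-30b had the largest change by size of the 59 in both. The 3p strand in these ratios rested on as few as 7 reads, in replicate 3 of BF-8d, and without the replicates numbered 3 the BF change was 3.01.

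No change from day 0 to day 8 was called for the other hairpins. The 5p strand of ssc-miR-30a was 10.8 to 21.0 times its 3p strand in every library, and the log2 ratio differed between days by 0.14 in BF (95% interval -0.35 to 0.63) and 0.03 in IMF (95% interval -0.46 to 0.52). In ssc-miR-30e the 3p strand was the higher in 19 of 24 libraries, and the ratio of 5p to 3p was 0.352 to 1.33. The log2 ratio differed by -0.68 in BF (95% interval -1.39 to 0.03, adjusted p = 0.125) and -0.41 in IMF (95% interval -1.12 to 0.30, adjusted p = 0.455). The ratio of ssc-miR-30c to the 3p strand of MIR30C-2 was 16.4 to 71.8, with reads of both ssc-miR-30c hairpins in its numerator.

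Between the sources, averaged over the 4 days, the log2 ratio of 5p to 3p was lower in IMF for ssc-miR-30b by 1.03 (limma difference -1.03, SE 0.17, adjusted p = 9.88e-05) and for ssc-miR-30c by 0.53 (difference -0.53, SE 0.16, adjusted p = 0.0182), against 25.4% of the 59 hairpins in either direction. For ssc-miR-30a the difference was -0.02 (95% interval -0.26 to 0.23) and for ssc-miR-30e 0.03 (95% interval -0.33 to 0.38). With a pseudocount of 0.1 in place of 1 the limma difference of ssc-miR-30b was -0.78 (adjusted p = 0.0263). The call of ssc-miR-30c was lost with a pseudocount of 0.1 (adjusted p = 0.0974) and without the replicates numbered 2 (0.180) or 3 (0.0778). Whether this difference varied between days was not tested. For ssc-miR-30b the mean ratio on day 0 was 17.3 in BF and 18.5 in IMF, the libraries overlapped on days 0 and 4, and those of IMF lay lower without overlap on days 2 and 8. For ssc-miR-30c the mean ratio on day 2 was 25.2 in BF and 29.4 in IMF, and the libraries overlapped on all 4 days. Both calls rest on pairs in which the 3p strand is rare.

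**Figure D5:**
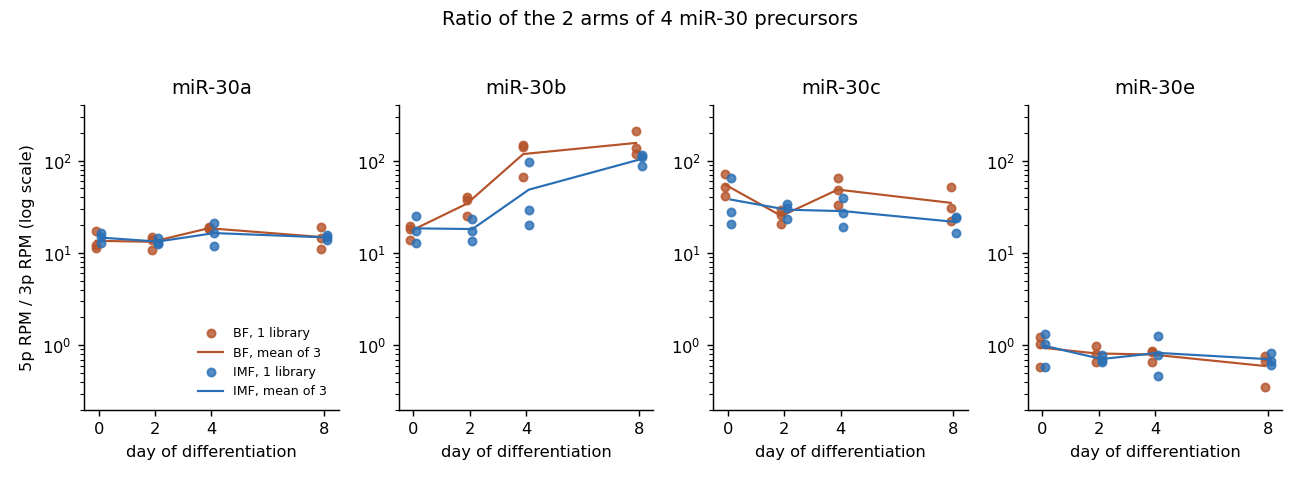
Ratio of 5p RPM to 3p RPM (y axes, logarithmic) for the 4 miR-30 precursor names with both arms, by day of differentiation (x axes), with a point for each library and a line through the means of 3. The ratio of miR-30b goes from about 17 to above 100 in BF between day 0 and day 8, while that of miR-30a stays between 10.8 and 21.0 throughout.

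ssc-miR-30c-1-3p, the 3p strand of the chromosome 6 hairpin, has the seed of ssc-miR-30c-3p and was at a like level, 3.80 to 8.17 RPM. It was called in none of the 12 comparisons between groups. From day 0 to day 8, over which ssc-miR-30c-3p from chromosome 1 rose, its libraries went from 7.41, 6.96 and 7.23 RPM to 4.60, 5.97 and 5.25 RPM in BF (adjusted p = 0.163) and from 5.35, 7.55 and 7.06 RPM to 5.87, 4.61 and 5.23 RPM in IMF (adjusted p = 0.229). The ratio of ssc-miR-30c-3p to ssc-miR-30c-1-3p was 0.268, 0.476 and 0.393 in BF-0d and 1.85, 0.973 and 0.808 in BF-8d, and 0.737, 0.522 and 0.206 in IMF-0d and 1.49, 1.59 and 1.91 in IMF-8d, with no overlap between the days in either source. The ratio was below 1 in the 6 libraries of day 0 and above 1 in the 3 libraries of IMF-8d.

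Across the 24 libraries the members were not equally alike. Pearson correlations of log2(RPM + 1) are given as descriptions, since the libraries share groups, days and a common total. ssc-miR-30d was most like ssc-miR-30b-5p (r = 0.885) and ssc-miR-30c-5p (r = 0.864) within the family, and ssc-miR-30a-5p was most like ssc-miR-30b-5p (r = 0.913) and its own 3p strand (r = 0.902). ssc-miR-30e-5p was most like ssc-miR-30b-3p (r = 0.526) and ssc-miR-30d (r = 0.407), and had r = 0.102 with ssc-miR-30a-5p and r = 0.228 with its own 3p strand. By Spearman correlation these orders turned. ssc-miR-30d was then most like ssc-miR-30c-5p (0.920, against 0.843 for ssc-miR-30b-5p). ssc-miR-30a-5p was most like its 3p strand (0.882 against 0.824 for ssc-miR-30b-5p), and ssc-miR-30e-5p like ssc-miR-30d (0.434 against 0.417 for ssc-miR-30b-3p). Outside the family the tested entries most like ssc-miR-30d were ssc-miR-191 (r = 0.949), ssc-miR-199b-5p (r = 0.946) and novel_miR_561 (r = 0.945), those most like ssc-miR-30a-5p were ssc-miR-132 (r = 0.915), novel_miR_298 (r = 0.898) and ssc-miR-500-3p (r = 0.889), and those most like ssc-miR-30e-5p were ssc-miR-140-5p (r = 0.812), ssc-miR-125a (r = 0.717) and ssc-miR-330 (r = 0.713).

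For other miRNAs with a described part in fat cell formation, lists chosen with earlier results of these data known were counted in the same way. Of 9 tested entries of miRNAs described as favouring it (miR-26b, miR-103, miR-107, miR-143, miR-148a, miR-210 and miR-378), 4 rose and 1 fell from day 0 to day 8 in BF, and 3 rose and none fell in IMF. Of all tested entries 27.9% rose and 14.9% fell in BF, and 19.8% and 10.7% in IMF. Of 14 tested entries of miRNAs described as restraining it (miR-27a, miR-27b, miR-130a, miR-130b, miR-138, miR-145, miR-155, miR-221, miR-222 and miR-224), 6 rose and 6 fell in BF, and 2 rose and 1 fell in IMF. The median log2 difference was 0.15 and 0.12 for the first list and 0.13 and -0.09 for the second in BF and IMF, beside 0.15 and 0.07 for all tested entries and 0.92 and 0.96 for the members of the miR-30 family.

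Markers of other cell types were counted in the same libraries. Of 7 skeletal muscle entries 3 were tested, and their sum was 819 to 1013 RPM in BF-0d, 1324 to 2362 RPM in BF-8d, 910 to 1739 RPM in IMF-0d and 982 to 1632 RPM in IMF-8d, nearly all of it ssc-miR-1. The other 2 tested entries, ssc-miR-133a-3p and ssc-miR-499-5p, had 7.53 to 30.2 RPM and 8.57 to 23.2 RPM over the 24 libraries. Among the untested entries ssc-miR-133b and ssc-miR-206 were at most 0.987 and 0.934 RPM. Of 6 blood cell entries 1 was tested (ssc-miR-486), and their sum was 1.19 to 1.99 RPM in BF-0d, 3.71 to 4.44 RPM in BF-8d, 1.31 to 1.87 RPM in IMF-0d and 6.68 to 8.08 RPM in IMF-8d. The 2 endothelial entries, the strands of miR-126, summed to 26.4 to 90.9 RPM in the 12 BF libraries and to 18.2 to 40.4 RPM in the 12 IMF libraries. The libraries of the blood sum lay higher on day 8 than on day 0 in both sources, and those of the muscle sum in BF, without overlap. Of the 3 tested muscle entries, 2 were called higher and 1 lower from day 0 to day 8 in BF, and 1, ssc-miR-133a-3p, was called higher in IMF. The endothelial sums of BF and IMF overlapped on days 0 and 2, when neither strand was called, and lay lower in IMF without overlap on days 4 and 8, with 1 and both of the strands called. Between the sources the muscle sum was 475 to 544 RPM in BF-2d and 814 to 1065 RPM in IMF-2d, with ssc-miR-1 called higher in IMF. The blood sum was 2.81 to 6.37 RPM in BF-4d and 0.662 to 1.60 RPM in IMF-4d, and ssc-miR-486 was called lower in IMF on day 4 and higher on day 8. On day 0, ssc-miR-133a-3p and ssc-miR-499-5p were also called, 1 of them higher and 1 lower in IMF. The part of these cells in the miR-30 results was not tested.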

How the data were processed

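Small RNA libraries of BF and IMF cultures, 3 for each of 8 groups, were sequenced by the authors as single-end reads. The authors removed adapters and low-quality reads, mapped the rest to Sscrofa11.1 by Bowtie, allowing no mismatch, removed other classes of RNA, and counted reads on miRBase and newly predicted miRNAs. The deposited values, called TPM by the authors, are RPM: each column sums to 1000000 over 1587 entries, and all values lay within 5.69e-04 of a whole number of reads. Groups follow the sample titles. No molecular identifiers are named, so floors cover counting error only. The 95% intervals are those of limma and rest on the spread between libraries.

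The main test was limma 3.58.1 (eBayes with trend, R 4.3.3) on log2(RPM + 1) of the 2 groups compared, for 430 entries with a mean of at least 1 RPM, with Benjamini-Hochberg adjustment over all of them and calls at FDR under 0.05 and fold above 1.5. The interaction was a moderated F test over 24 libraries, and arm ratios were fitted on log2 of (5p + 1)/(3p + 1). Differences are day 8 minus day 0, the second day of a step minus the first, and IMF minus BF. Libraries of a group differed by more than counting error (for every pair a chi-square of 49.2 or more per degree of freedom). Deviations of same-numbered libraries from their group means had a median correlation of -0.00346 over 84 pairs of libraries, from -0.329 to 0.509. Of these correlations 21 were above 0.1. Pairs of BF and IMF on the same day were not examined apart. The numbers were not taken as pairs, since the labels do not link them to piglets. Whole reads went into edgeR 4.0.16 and DESeq2 1.42.0 as alternatives. From day 0 to day 8 edgeR called 188 entries in BF and 147 in IMF, and limma 184 and 131. Further alternatives were a filter at 10 RPM or none, a pseudocount of 0.1, one fit of all libraries, the replicate block, median-of-ratios scaling, ssc-miR-21-5p left out of the total, FDR alone, and leaving out libraries. The fits were also run on simulated reads with known changes. These reads had no change in the share of ssc-miR-21-5p and no effect shared by same-numbered libraries, so they cannot show how either affects the calls. Python 3.11.15, NumPy 2.4.6, pandas 2.3.3, pysam 0.24.0 and Matplotlib 3.10.9 were also used.

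All members are named whatever their values, with ssc-miR-30c-1-3p, entries sharing a member's seed, ssc-miR-21-5p, and the 3 entries most like ssc-miR-30d, miR-30a-5p and miR-30e-5p. The members and lists were chosen with earlier results of these data known. A 3p strand of ssc-miR-30d and the mRNA libraries were not analysed here.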

Additional observations from a re-analysis of the deposited data

Results flagged for a closer look

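For 5 members the time course differed between BF and IMF in the interaction test of limma over 24 libraries: ssc-miR-30b-5p with an adjusted p of 8.24e-04, ssc-miR-30a-5p with 0.00313, ssc-miR-30c-5p with 0.00834, ssc-miR-30c-3p with 0.0183 and ssc-miR-30d with 0.0329. Among all tested entries 31.6% were past the same threshold. Without the libraries numbered 2 none of these 5 members was past it. With edgeR on whole reads ssc-miR-30b-5p, miR-30a-5p and miR-30c-5p were past it, and ssc-miR-30c-3p (adjusted p = 0.0851) and ssc-miR-30d (adjusted p = 0.126) were not. The result of ssc-miR-30d held in 3 of 8 other settings. No test of single outlying libraries was run within the groups of 3.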

How the results depend on the processing

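Numbers of members called moved with the settings. Over the BF steps, where 2 were called, there were 0 with no filter, 4 with edgeR, and 6 with DESeq2 or with one fit of all libraries. Over the IMF steps, where 5 were called, there were 2 with no filter, with median-of-ratios scaling or without ssc-miR-21-5p in the total, and 3 with the replicate block. From day 0 to day 8 there were 3 in BF, for 5, with no filter or without ssc-miR-21-5p, and 3 in IMF, for 6, without ssc-miR-21-5p. Between the sources there were, for 3 on day 0, 0 with edgeR and 1 with no filter, one fit, median-of-ratios scaling or DESeq2. On day 2 there were 0 with no filter and 1 with the replicate block, for 4, and on day 4, for 6, 1 with no filter and 3 with median-of-ratios scaling or edgeR. The time course differed for 3 members with edgeR, for 5. The arm ratio differed for 1 hairpin with a pseudocount of 0.1 and for 0 with a mean of at least 10 RPM, for 2, since ssc-miR-30b and miR-30c drop out there. Over the BF steps the block by replicate number called ssc-miR-30b-5p from day 2 to day 4 (adjusted p = 0.0136, limma) and not ssc-miR-30c-3p from day 0 to day 2 (0.0544). Apart from the IMF steps and day 2 between the sources, given above, the block moved none of these numbers by over 1.5 times. Of the 24 libraries, 9 correlated best with their own number.

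Leaving out libraries gave 0 to 5 members over the BF steps (0 without replicate 2 of BF-2d, 1 without replicates 2 or 3 of BF-4d, any of BF-0d or replicate 1 of BF-2d), 1 to 5 over the IMF steps (2 without replicate 1 of IMF-8d, 3 without replicate 2 of IMF-8d or replicate 1 of IMF-4d), 4 to 5 and 4 to 6 from day 0 to day 8 in BF and IMF, 0 to 3, 0 to 8, 5 to 7 and 2 to 3 between the sources on days 0, 2, 4 and 8, 0 to 6 time courses and 1 to 2 arm ratios. On day 0 there was 1 without replicate 1 or 3 of BF-0d. On day 2 there were 8 without replicate 3 of BF-2d, 2 without its replicate 2, 1 without replicate 2 of IMF-2d, and 0 without replicate 1 of BF-2d or replicate 1 or 3 of IMF-2d. The time courses numbered 0 without the 8 libraries numbered 2, 2 without those numbered 3, and 4 or more without any single library.

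No called value turned its sign. Without ssc-miR-21-5p ssc-miR-30c-5p in BF from day 0 to day 8 became -0.14, ssc-miR-30e-3p -0.39 in BF and -0.23 in IMF, and ssc-miR-30b-3p -0.12 in IMF, and with DESeq2 ssc-miR-30e-3p became -0.01 in BF. Leaving out libraries gave -0.35 to 0.14 for ssc-miR-30b-3p in BF and -0.04 to 0.28 in IMF, and -0.02 to 0.50 for ssc-miR-30e-3p in BF and -0.00 to 0.40 in IMF. The log2 arm ratio from day 0 to day 8 in IMF was then -0.00 to 0.11 for ssc-miR-30a and -0.70 to 0.17 for ssc-miR-30c, and that of IMF minus BF -0.12 to 0.13 for ssc-miR-30a and -0.11 to 0.18 for ssc-miR-30e. The cause of these changes was not tested. Members under 10 RPM, ssc-miR-30b-3p and miR-30c-3p, rest on few reads, which limits what depth can show for them.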

Other observations

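With ssc-miR-21-5p left out of the total, the 5 guide strands of the miR-30 family made up 1.25% ± 0.0310 (SD, n = 3) of the remaining reads in BF-0d, 1.55% ± 0.192 in BF-2d, 2.46% ± 0.502 in BF-4d and 1.80% ± 0.481 in BF-8d. In IMF the shares were 0.796% ± 0.116, 0.778% ± 0.0999, 0.835% ± 0.102 and 1.07% ± 0.213 on days 0, 2, 4 and 8. The BF share was highest on day 4 on this scale, and the IMF share on day 8.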
